A study of Mus musculus with 12 samples.

Results

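Cxcl1, Cxcl2, Cxcl3 and Cxcl5 encode the neutrophil-attracting CXC chemokines that act through the receptor CXCR2, and their mRNA was followed in pancreatic tumor cells that lack Dkk3 and were given the protein back. Members were the rows of the raw count table that carry these 4 gene names, 4 of 57278 genes, and all 4 were among the 15165 genes with enough counts to be tested. The cells were 3 lines named DDKC_9750, DDKC_9790 and DDKC_9804, isolated from tumors of DDKC mice. These mice are Dkk3-/- and carry Ptf1aCre/+, with the Dkk3 knockout present in every cell and Cre expressed from the pancreatic Ptf1a gene, and all groups here share the knockout, which removes the secreted form of the protein. Each line was sequenced untreated and after treatment with recombinant soluble DKK3 (rDKK3), with 2 libraries for each line and treatment and 12 in all; the age of the mice, and the dose and time of rDKK3 used for these libraries, are not given in the sources used here, nor is a vehicle named for the untreated cells.

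CXCR2 is a G protein-coupled receptor carried mainly by neutrophils. Its ligands are small secreted proteins that bind to the matrix and the endothelium and draw neutrophils out of the blood along a gradient. Epithelial cells make little of them at rest and induce them strongly through NF-kB when they meet inflammatory cytokines such as TNF or interleukins, and the mRNAs are then short-lived. In pancreatic cancer, the tumor cells are a known source of these ligands, and the neutrophils and myeloid suppressor cells that arrive can restrain T cells.

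The 4 genes lie on 1 strand of 1 stretch of mouse chromosome 5 that spans 146.579 kb (GRCm39). Cxcl5, the ligand also known as LIX, stands first, with its gene (ENSMUSG00000029371.8) at chr5:90907219-90909483. Cxcl3 (ENSMUSG00000029379.11) follows at chr5:90933962-90937459. Cxcl1, the ligand also known as KC (ENSMUSG00000029380.12), is at chr5:91039100-91040974, and Cxcl2 (ENSMUSG00000058427.11) begins 10755 bases after its end, at chr5:91051730-91053797. The main transcript of each gene has 4 exons. Between Cxcl5 and Cxcl2 lie 3 further protein-coding genes of the family, Ppbp, Pf4 and Cxcl15, which had 28, 41 and 708 counts over all 12 libraries, against 70625 for Cxcl5.

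The stretches just before the start of each gene are shown because these genes are textbook targets of NF-kB and because the 4 windows share a run of letters. In the 250 bases before the start site of the main transcript, a match to the NF-kB motif was found in 4 of 4 members, against 7.62% of 21770 protein-coding genes and 8.63% of the 12427 of them that were tested. Capitals mark the match in the windows of 120 bases below, all on the plus strand of GRCm39, and each window ends before the first annotated transcript of its gene.
Cxcl5, chr5:90907066-90907185: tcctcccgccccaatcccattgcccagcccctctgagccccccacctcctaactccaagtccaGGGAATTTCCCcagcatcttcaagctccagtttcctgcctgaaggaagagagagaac
Cxcl3, chr5:90933842-90933961: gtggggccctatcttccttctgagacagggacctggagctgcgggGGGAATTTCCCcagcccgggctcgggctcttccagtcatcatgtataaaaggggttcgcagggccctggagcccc
Cxcl1, chr5:91038974-91039093: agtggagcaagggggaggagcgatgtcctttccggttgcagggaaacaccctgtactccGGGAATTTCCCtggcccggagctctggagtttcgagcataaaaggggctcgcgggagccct
Cxcl2, chr5:91051610-91051729: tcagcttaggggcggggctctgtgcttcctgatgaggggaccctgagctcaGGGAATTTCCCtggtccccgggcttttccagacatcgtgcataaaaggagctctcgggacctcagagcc

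The capitals spell the same 11 bases, GGGAATTTCCC, in all 4 windows. This run reads the same on both strands around its middle, so that the NF-kB motif matches once on each strand and the matches overlap. It is the longest run the 4 windows have in common, was found by comparing them, and occurs in 11 of the 21770 protein-coding windows (0.0505%). It begins 61 bases before the start site of the main transcript in Cxcl1, 69 in Cxcl2, 75 in Cxcl3 and 108 in Cxcl5. For Cxcl5 another annotated transcript starts earlier, and 51 bases lie between the printed window and the start site used for this distance. Among the other motifs searched on both strands, TATAAA occurred in Cxcl3 alone (11.9% of windows) and the C/EBP motif TTGCNNAA in Cxcl5 alone (9.34%). The AP-1 motif TGANTCA (6.17%) and the STAT motif TTCNNNGAA (7.70%) were found in 0 of 4. A match is a description of letters; binding was not measured.

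**Figure D1:**
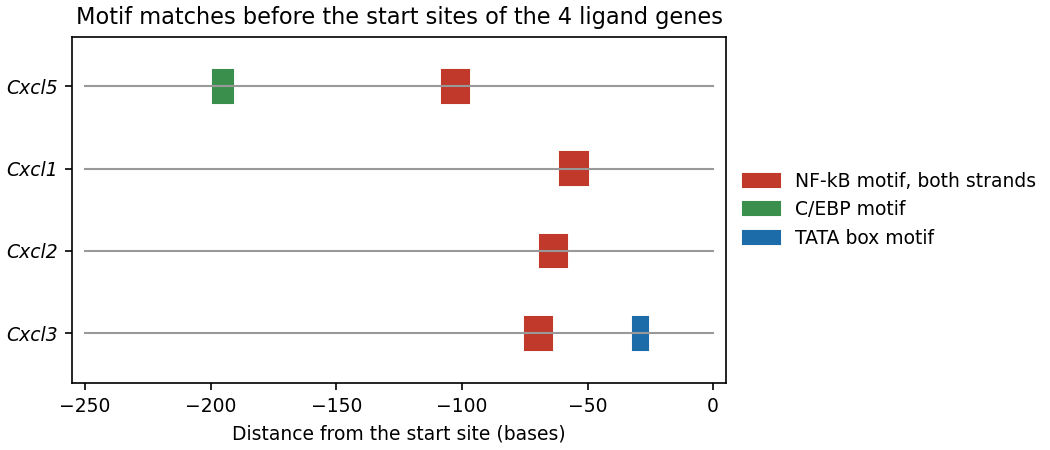
Matches to 5 sequence motifs in the 250 bases before the start site of each ligand gene; the horizontal axis is the distance from the start site in bases. The NF-kB match (red) stands 61 to 108 bases before the start in all 4 genes, while the TATA box match (blue) is seen in Cxcl3 and the C/EBP match (green) in Cxcl5.

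The cultures were checked first. Dkk3 had 0 counts in 11 libraries and 1 count in 1 rDKK3 library of DDKC_9750; the added protein is not measured by RNA sequencing. Library totals ran from 7520741 to 24541083 counts in untreated cells and from 3822987 to 11567095 with rDKK3, so treated values rest on fewer counts. The 2 libraries of a line and treatment differed by less than sampling noise once a shift common to the lower- and the higher-numbered libraries was allowed for (mean deviance of 0.764 per degree of freedom over 12979 genes, against 6.39 without that shift), and the labels do not say whether they came from separate cultures. They were therefore summed and counted as 1 sample, which leaves 3 lines per treatment as the replicates. Summed levels of 6 epithelial markers (Krt7, Krt8, Krt18, Krt19, Epcam and Cdh1) were 5032 to 9668 CPM (counts scaled to the TMM-adjusted library total) untreated and 3854 to 7949 with rDKK3. The 8 neutrophil markers together reached at most 0.258 CPM, with Mpo, Elane, Retnlg and Csf3r at 0 counts in every library.

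Cxcl5 was the most abundant ligand mRNA in DDKC_9750 and DDKC_9790, and was higher with rDKK3 in each of the 3 lines. In DDKC_9750, the untreated libraries held 4635 and 6868 counts (406 and 373 CPM) and the rDKK3 libraries 23665 and 35043 (5955 and 5543 CPM). In DDKC_9790, 51 and 99 counts (7.04 and 6.19 CPM) stood against 87 and 136 (12.2 and 11.9 CPM). In DDKC_9804, where the gene is barely expressed, 5 and 12 counts (0.442 and 0.507 CPM) stood against 8 and 16 (1.73 and 2.13 CPM). Treated and untreated libraries did not overlap within any line, while across lines they did, since untreated DDKC_9750 lay far above both other lines with rDKK3. The share of all tested genes without overlap within lines was not counted, and paired libraries count here as 1 sample. With the libraries summed, the ratio of treated to untreated level was 14.9 in DDKC_9750 (95% counting interval 14.6 to 15.2), 1.87 in DDKC_9790 (1.51 to 2.32) and 4.07 in DDKC_9804 (2.09 to 8.06). In treated DDKC_9750 cells, Cxcl5 took 0.592% of all counts, against 0.0399% untreated, and by CPM per kilobase of transcript it ranked 4 among 12425 protein-coding genes, against rank 188 untreated. In a culture, more cells with the mRNA and more mRNA per cell cannot be told apart.

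Cxcl1 was the main ligand mRNA in DDKC_9804 and the next after Cxcl5 in DDKC_9750. The untreated DDKC_9750 libraries held 639 and 931 counts (55.9 and 50.5 CPM) and the rDKK3 libraries 1662 and 2554 (418 and 404 CPM). In DDKC_9804 it was 32 and 61 counts untreated (2.83 and 2.58 CPM) and 54 and 104 with rDKK3 (11.6 and 13.8 CPM). Treated libraries lay above untreated ones in both of these lines, and the share of all tested genes for which this holds was not counted. In DDKC_9790, by contrast, 10 and 24 counts untreated (1.38 and 1.5 CPM) overlapped with 10 and 21 with rDKK3 (1.40 and 1.84 CPM). The ratios were 7.84 (7.40 to 8.32) in DDKC_9750, 4.89 (3.76 to 6.39) in DDKC_9804 and 1.15 (0.681 to 1.92) in DDKC_9790, where the interval includes 1.

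Cxcl2, a ligand that many cells make on acute stimulation, was scarce in untreated cells of all 3 lines and had its largest difference in DDKC_9750. There, 5 and 8 counts (0.437 and 0.434 CPM) stood against 113 and 150 with rDKK3 (28.4 and 23.7 CPM), a ratio of 59.1 (34 to 112). In DDKC_9790, 3 and 10 counts (0.414 and 0.625 CPM) stood against 12 and 10 (1.68 and 0.874 CPM), a ratio of 2.13 (1.03 to 4.60). In DDKC_9804 there was 1 count in all untreated and 1 with rDKK3, under the floor of 3 counts, and no fold is given. The ratio in DDKC_9790 rests on few counts, and leaving out 1 library moved it between 1.56 and 3.0.

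Cxcl3, the closest relative of Cxcl2, was also higher with rDKK3 in DDKC_9750. In DDKC_9790 its ratio had an interval that included 1 and overlapped that of Cxcl2. In DDKC_9750, 8 and 17 counts untreated (0.700 and 0.922 CPM) stood against 72 and 115 with rDKK3 (18.1 and 18.2 CPM), a ratio of 21.8 (14.3 to 34.6). In DDKC_9790, 10 and 19 counts untreated (1.38 and 1.19 CPM) overlapped with 6 and 15 with rDKK3 (0.840 and 1.31 CPM), a ratio of 0.911 (0.494 to 1.65). In DDKC_9804, 0 and 1 counts, under the floor of 3, stood against 3 and 3, a ratio of 17.3 whose counting interval runs from 2.10 to 795.

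**Figure D2:**
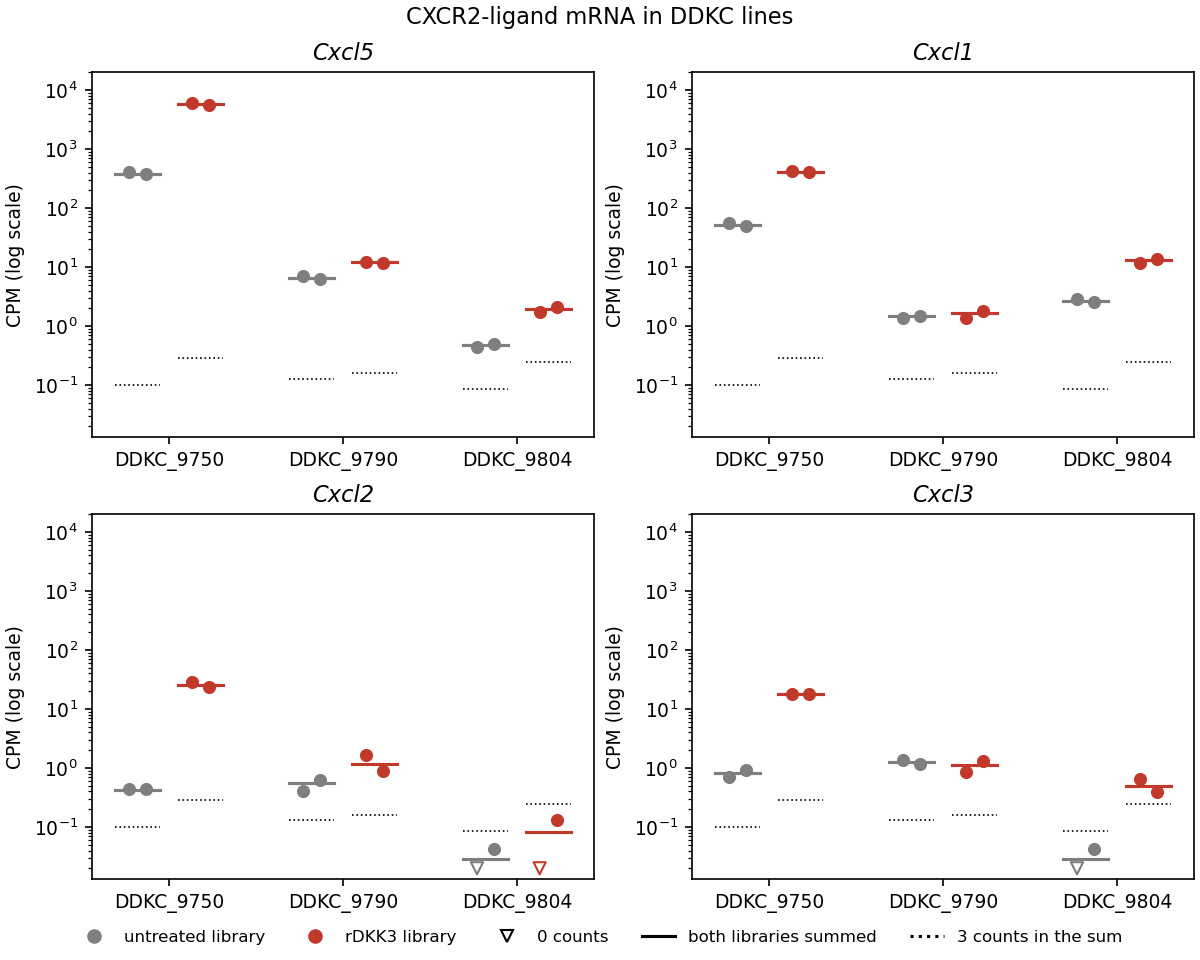
Level of each ligand mRNA in CPM (log scale) in the 12 libraries, by line; grey points are untreated and red points rDKK3-treated libraries, solid lines the 2 libraries summed, dotted lines the level of 3 counts in the sum, and open triangles libraries with 0 counts. Cxcl5 in DDKC_9750 goes from 382 to 5699 CPM, while Cxcl2 and Cxcl3 in untreated DDKC_9804 lie under the floor.

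The order of the lines differed from ligand to ligand. Cxcl5 ran from DDKC_9750 through DDKC_9790 to DDKC_9804 in both conditions, with the highest level 789-fold over the lowest untreated and 2892-fold with rDKK3. Cxcl1 ran from DDKC_9750 through DDKC_9804 to DDKC_9790, spanning 35.7-fold untreated and 244-fold with rDKK3, and neighbors in both orders had counting intervals that did not overlap. Cxcl2 and Cxcl3 were near each other in untreated DDKC_9790 (0.559 and 1.25 CPM summed) and DDKC_9750 (0.432 and 0.831 CPM), where for each gene the intervals of the lines overlapped. With rDKK3, DDKC_9750 was highest for both, 21.5-fold and 16.0-fold over the next line, and for Cxcl3 the intervals of DDKC_9790 and DDKC_9804 overlapped.

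Each line thus had its own mixture of ligand mRNA. Per kilobase of transcript, Cxcl5 made up 81.4% of the summed level of the 4 mRNAs in untreated DDKC_9750 and 88.6% with rDKK3, and Cxcl1 18.2% and 10.4%. In DDKC_9804, Cxcl1 made up 88.4% and 88.2%, with Cxcl5 at 9.84% and 8.16%. DDKC_9790 was the most mixed: untreated, Cxcl5 took 55.7%, Cxcl1 20.7%, Cxcl3 16.7% and Cxcl2 6.85%. With rDKK3 the share of Cxcl5 there was 66.0%. Taken as a sum, the 4 mRNAs held 0.0455% of all counts in untreated DDKC_9750 and 0.639% with rDKK3. In the other lines the sum was 9.72 CPM untreated and 16.1 CPM treated for DDKC_9790, and 3.19 and 15.5 CPM for DDKC_9804.

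**Figure D3:**
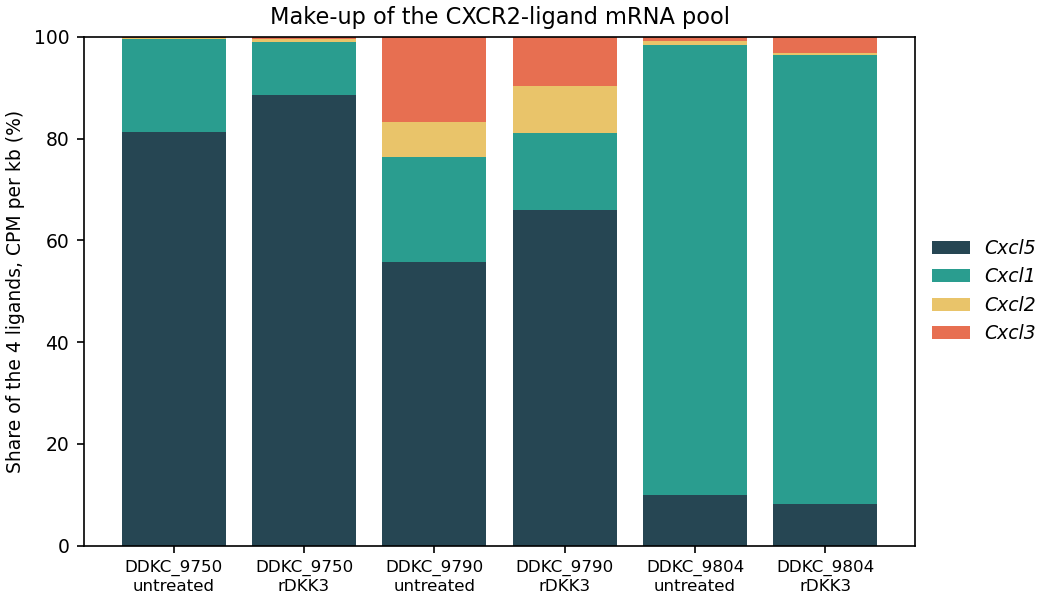
Share of each ligand in the summed level of the 4 ligand mRNAs, in percent of CPM per kilobase of transcript, for each line and treatment with its libraries summed. Cxcl5 fills 81.4% and 88.6% of the bars of DDKC_9750, Cxcl1 88.4% and 88.2% of those of DDKC_9804, and DDKC_9790 is divided among the 4.

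Whether the lines as a set respond was tested with edgeR's quasi-likelihood test on the 6 summed samples, with the line as a block. Estimates were all above 0: Cxcl2 had a log2 fold change of 3.61 (SE 1.21), Cxcl3 2.54 (1.11), Cxcl5 2.41 (0.68) and Cxcl1 2.15 (0.50). None passed the adjusted threshold of 0.05 over 15165 genes. Benjamini-Hochberg adjusted p was 0.578 for Cxcl1, Cxcl2 and Cxcl5 and 0.611 for Cxcl3 in this edgeR fit, with unadjusted p of 0.00711 for Cxcl1, 0.0148 for Cxcl5, 0.0290 for Cxcl2 and 0.0681 for Cxcl3. The whole test called 1 gene, Lcn2, which is 0.00659% of the genes as higher and leaves 0 of 4 members called; 1294 genes had an unadjusted p under 0.05. By size of log2 fold change the members ranked 44 (Cxcl2), 87 (Cxcl3), 96 (Cxcl5) and 107 (Cxcl1) of 15165. Across the 3 lines, mean Cxcl5 was 130 ± 219 CPM untreated and 1904 ± 3286 with rDKK3 (SD, n = 3), so the SD exceeded the mean in both groups. For Cxcl1 these levels were 18.8 ± 28.9 and 141 ± 232 CPM, for Cxcl2 0.340 ± 0.277 and 8.93 ± 14.4, and for Cxcl3 0.702 ± 0.619 and 6.59 ± 10.0. An exact permutation test over 3 pairs of lines cannot go below 0.25.

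Treating the 12 libraries as separate samples, with the line in the model, gave calls for all 4 members. In that edgeR fit the log2 fold changes were 4.08 for Cxcl2 (adjusted p = 0.00470), 2.62 for Cxcl5 (0.00451), 2.60 for Cxcl3 (0.0312) and 2.43 for Cxcl1 (0.000478). It called 7.95% of all tested genes as higher with rDKK3, 1205 genes, so a call there is far less rare than in the summed test, and it counts the 2 libraries of a line and treatment as 2 samples. These calls also leaned on 1 line. Without DDKC_9750, Cxcl1 (1.52, adjusted p = 0.0257) and Cxcl5 (1.14, 0.00934) were still called by edgeR, while Cxcl2 (1.15, 0.135) and Cxcl3 (0.55, 0.580) were not. The fit without that line called 3667 of 15165 genes, 1527 of them as higher, more than the 1205 with all lines. Cxcl3 was also not called without DDKC_9804 (2.66, 0.0699).

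Within single lines, the ligands lay among the genes with the largest log2 fold changes in DDKC_9750 and, Cxcl2 aside, in DDKC_9804. Of 15165 genes, Cxcl1 ranked 70 in DDKC_9804 and 134 in DDKC_9750, Cxcl3 64 and 48, and Cxcl5 137 and 70. Log2 fold changes of at least 1 were reached by 4 of 4 members in DDKC_9750, against 6.08% of all tested genes, with 5.61 for Cxcl2, 4.30 for Cxcl3, 3.90 for Cxcl5 and 2.97 for Cxcl1 (prior count 2). In DDKC_9790 it was 0 of 4, against 1.61%: Cxcl2 had 0.98, Cxcl5 0.89, Cxcl1 0.19 and Cxcl3 -0.13. In DDKC_9804 it was 3 of 4, against 3.88%: Cxcl3 had 2.27 from an untreated level under the floor, Cxcl1 2.25 and Cxcl5 1.84, and Cxcl2, at 1 count on each side, has no value. By sign alone, 14.2% of all tested genes were higher with rDKK3 in all 3 lines; of the members, Cxcl1 and Cxcl5 were, Cxcl3 was not, and Cxcl2 has no usable sign in DDKC_9804. Cxcl1 in DDKC_9790 had an interval that included 1 and a ratio of 0.957 without the second rDKK3 library. Of the members, only Cxcl5 had an interval above 1 in each line, and the share of all tested genes that did was not counted. These are single samples per line and treatment, so no test is given.

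**Figure D4:**
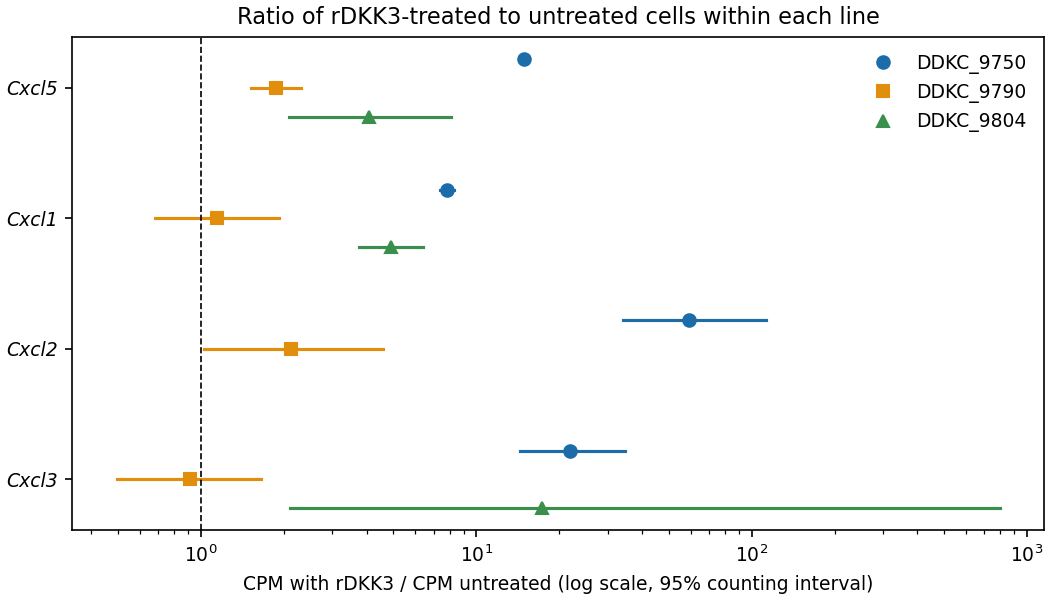
Ratio of the level with rDKK3 to the untreated level within each line (log scale), from summed counts; points are ratios, bars 95% intervals for counting error only, and the dashed line marks no difference. All 4 ligands are above 1 in DDKC_9750, from 7.84 for Cxcl1 to 59.1 for Cxcl2, while the intervals of Cxcl1 and Cxcl3 in DDKC_9790 span 1; Cxcl2 in DDKC_9804 has no point because it was under the floor.

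**Figure D5:**
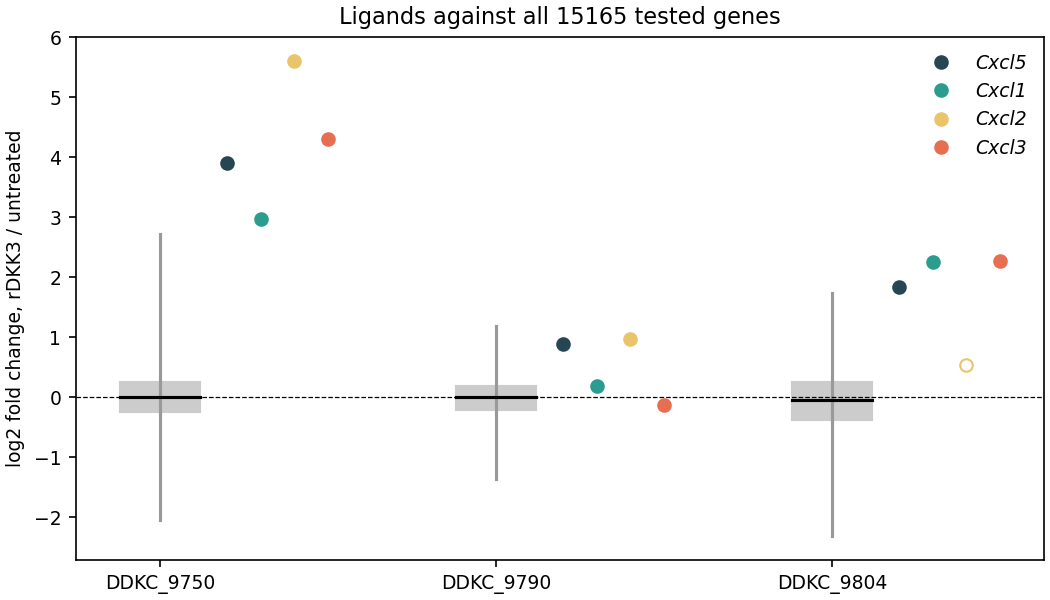
Log2 fold change of the ligands (points) beside that of all 15165 tested genes in each line; boxes hold the middle 50% of genes, black bars the median and thin lines the 1st to 99th percentile. In DDKC_9750 the 4 points lie above the 99th percentile of 2.72, in DDKC_9790 they lie under the 99th percentile of 1.18, and in DDKC_9804 Cxcl3, Cxcl1 and Cxcl5 lie above that of 1.74; the open point is Cxcl2 in DDKC_9804, under the floor.

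An interaction of line and treatment was fitted to the 12 libraries. All 4 members passed, with edgeR adjusted p of 1.07e-07 for Cxcl5, 2.86e-05 for Cxcl1, 4.38e-05 for Cxcl3 and 0.000372 for Cxcl2. So did 49.3% of all tested genes, 7474 of 15165. Its error comes from the spread between paired libraries, and this fit has no term for their shift (mean deviance of 6.39 per degree of freedom over 12979 genes). With the shift allowed for, the spread was less than sampling noise (0.764). The summed samples leave no degrees of freedom to test the interaction.

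The members also differ in how well their reads can be told apart. Coding sequences of Cxcl2 and Cxcl3 are identical at 89.8% of aligned bases, Cxcl1 matches them at 75.6% and 72.6%, and Cxcl5 matches the others at 47.9% to 49.0%. Of the 2159 distinct 50-base stretches in Cxcl2 transcripts, 126 (5.84%) also occur in Cxcl3. Of the 3587 in Cxcl3 transcripts, 152 (4.24%) occur in other genes, 126 of them in Cxcl2. Cxcl1 shares 0 of 1976 with any other gene and Cxcl5 13 of 1956 (0.665%), none with a member. A share of reads of this size could pass between Cxcl2 and Cxcl3 or go uncounted, so their levels are uncertain; the effect on the ratios was not tested.

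Over the 6 summed samples, the levels of Cxcl2 and Cxcl3 followed each other most closely (Pearson r = 0.960 on log2 CPM) and those of Cxcl1 and Cxcl2 least (0.649). These are descriptions over 6 points that share 3 lines. Among protein-coding genes with a mean log2 CPM of at least 1, Slc39a10, a zinc transporter, was most like Cxcl1 (r = 0.999), followed by Lcn2 and Uty. Aldh3a2 (0.985), Gdpd1 and Mon1a were most like Cxcl2, Phaf1 (0.997), Tmem38b and Orai2 most like Cxcl3, and Vps36 (0.999), Pld1 and Hoga1 most like Cxcl5. The likeness is in the pattern and not in the size: Vps36 ran from 37.5 to 61.4 CPM and Uty from 29.9 to 38.6. Lcn2, which encodes the siderophore-binding protein lipocalin, had the widest range of these, at 60.4 and 4467 CPM in DDKC_9750, 0 and 0.0541 in DDKC_9790 and 0.0571 and 7.80 in DDKC_9804, untreated and treated. Its log2 fold change was 6.29 (SE 0.24, edgeR adjusted p = 0.0132 in the summed test).

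The rest of the pathway was read from lists of ligands, receptors, inducers and regulators. Of 5 other CXCR2 ligands and receptors, only Cxcl15 had enough counts for a test. It went the other way from the members in part: 380 and 251 counts in DDKC_9750 untreated and treated (12.6 and 24.4 CPM), 20 and 8 in DDKC_9790 (0.860 and 0.433 CPM) and 48 and 1 in DDKC_9804 (1.37 and 0.0821 CPM), with a log2 fold change of -0.41 in the summed test (adjusted p = 0.884) and 0.039 in the 12-library fit (0.973), both by edgeR. Cxcr1 and the scavenger receptor Ackr1 had 0 counts, and Cxcr2 itself 0 to 4 per line and treatment, at or near the floor.

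Among CXC chemokines that use other receptors, 4 of 9 were tested and had a median log2 fold change of 0.65, against -0.0054 for all tested genes. This median came from DDKC_9750: it was -0.025 without that line, and 1.19 in DDKC_9750, -0.37 in DDKC_9790 and 0.084 in DDKC_9804. Cxcl12 (0.51, adjusted p = 0.0268), the ligand of CXCR4, and Cxcl16 (0.66, 0.0313), a membrane-bound ligand of CXCR6, passed in edgeR's 12-library fit and not in the summed test. Cxcl9 and Cxcl11, which draw T cells, had 0 to 3 counts per line and treatment, and Cxcl10 0 to 34.

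Of the cytokines that induce these ligands, 5 of 11 were tested. Il1a had 9 and 12 counts in DDKC_9750, 5 and 7 in DDKC_9790 and 3 and 31 in DDKC_9804 (untreated and treated), with a log2 fold change of 2.58 in both fits (adjusted p = 0.578 summed and 0.0107 with 12 libraries, edgeR). Tnf had 38 and 124, 18 and 17, and 2 and 4 counts in the same order (2.03, 0.580 summed, and 2.10, 0.0198 with 12 libraries). Il36a passed the 12-library test on 36 counts in treated DDKC_9750, against 0 untreated and at most 1 in every other line and treatment. Il17a and Il17f had 0 counts, Il1b 2 and Il6 1 over all libraries. The list median was 2.03, and 1.46 over the 4 genes left without Il36a, which passed the filter on low counts through treated DDKC_9750 alone. In the fit without DDKC_9750 the median was 0.80 with all 5 genes. That value includes Il36a, which is almost without counts there, and was not taken without it.

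Receptors and adaptors upstream of NF-kB had a median log2 fold change of 0.0053 over 16 genes, and -0.18 without DDKC_9750. In edgeR's 12-library fit, the TNF receptor gene Tnfrsf1a was higher (0.27, adjusted p = 0.0429) and the interleukin receptor gene Il1r1 lower (-0.62, 0.00161). A list of 14 genes held NF-kB subunits, feedback genes and the C/EBP factor genes Cebpb and Cebpd. Of these, 10 were called higher and 0 lower in the 12-library fit, where 7.95% of genes were called higher, and 0 in the summed test. By sign, 8 of 14 were higher in all 3 lines, where 14.2% of all genes were, 8 of 14 passed the interaction test, near the 49.3% of all genes that did, and the list median was 0.36 (0.23 without DDKC_9750). Largest among the called genes were Cebpd (1.25, adjusted p = 0.0116), Nfkbia, the inhibitor that NF-kB induces (0.67, 0.0319), Tnfaip3, the A20 deubiquitinase (0.62, 0.00903), and Nfkbiz, a nuclear cofactor needed for part of the NF-kB targets (0.44, 0.000449), all by edgeR. Within DDKC_9750, DDKC_9790 and DDKC_9804, Cebpd had 2.23, 0.042 and 1.03, and Nfkbia 1.44, -0.026 and 0.52. Tnfaip3 had 0.47, 0.22 and 1.17 and Nfkbiz 0.43, 0.34 and 0.55 in that order. Relb (0.40), Rel (0.36), Bcl3 (0.29), Tnip1 (0.26), Nfkbib (0.26) and Nfkb2 (0.21) completed the 10. Not called by edgeR with 12 libraries were Cebpb (0.50, adjusted p = 0.0915), Nfkbie (0.39, 0.0769), Nfkb1 (0.28, 0.193) and Rela (0.038, 0.630). Medians of this list were 0.49 in DDKC_9750, 0.20 in DDKC_9790 and 0.28 in DDKC_9804.

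The proteins that destroy or guard chemokine mRNA had a median of -0.0030 over 9 genes. Zc3h12a, an RNase that cuts inflammatory transcripts and is itself an NF-kB target, went from 19.1 to 101 CPM in DDKC_9750, from 8.13 to 13.1 in DDKC_9790 and from 12.7 to 18.8 in DDKC_9804 (1.30, adjusted p = 0.00776 in edgeR's 12-library fit). Zc3h12c was also called higher there (0.44, 0.0294) and Hnrnpd lower (-0.18, 0.0282). Zfp36, which encodes the decay factor tristetraprolin, was at 64.1 and 130 CPM in DDKC_9750, 50.2 and 53.3 in DDKC_9790 and 74.6 and 33.4 in DDKC_9804, untreated and treated. It was not called (0.0065, adjusted p = 0.993 in edgeR's 12-library fit).

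A list of 12 genes held neutrophil growth factors, secreted proteins that accompany neutrophils, the enzyme gene Ptgs2 and the adhesion gene Icam1. Its 7 tested genes had a median of 2.34, and 5 were called higher in the 12-library fit, where 7.95% of all genes were. Lcn2 was also called in the summed test. Ptgs2 (0.67, adjusted p = 0.348) and Icam1 (0.64, 0.251) were not called by edgeR with 12 libraries. Within DDKC_9750, DDKC_9790 and DDKC_9804, Ptgs2 had -0.77, -0.04 and 2.48, and Icam1 1.91, -0.19 and -0.75. Without Saa3, which passed the filter on low counts through treated DDKC_9750 alone, the median was 1.77 and 4 of 6 were called. With all 7 genes the median was 3.80 in DDKC_9750, 0 in DDKC_9790 and 0.88 in DDKC_9804, and 0.49 in the fit without DDKC_9750. Outside DDKC_9750 these medians include Saa3, which had 0 counts there, and the 0 in DDKC_9790 is the value of Saa3 itself. Medians by line were not taken without it. Csf3, which encodes the granulocyte growth factor G-CSF, had 55 and 274 counts in DDKC_9750, 2 and 1 in DDKC_9790 and 6 and 0 in DDKC_9804 (3.10, adjusted p = 0.00745 in edgeR's 12-library fit). Csf2, which encodes GM-CSF, went from 0.997 to 17.5 CPM in DDKC_9750, from 0.645 to 0.703 in DDKC_9790 and from 1.31 to 5.58 in DDKC_9804 (2.53, 0.00578). Csf1, the macrophage growth factor gene, had 54.3 and 324, 14.5 and 15.3, and 9.73 and 18 CPM in that order (1.30, 0.0241). Saa3, a serum amyloid gene, had 1 count in untreated and 3858 in treated DDKC_9750 and 0 counts in the other lines, so its call in the 12-library fit (adjusted p = 4.89e-05, edgeR) comes from DDKC_9750. S100a8 and S100a9, the abundant calprotectin genes of neutrophils themselves, had 0 to 2 counts per line and treatment.

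Other values moved with treatment beside the ligands. Of the 6 epithelial markers, the 4 keratin mRNAs were lower with rDKK3 in all 3 lines, and Krt7 (-0.85, adjusted p = 0.00358), Krt8 (-0.45, 0.0131), Krt18 (-0.36, 0.0235) and Krt19 (-0.55, 0.000110) passed in edgeR's 12-library fit, which called 10.1% of all genes as lower, and not in the summed test. Cdh1, the E-cadherin gene, had 0.16 (adjusted p = 0.198) and Epcam -0.26 (0.671) in that edgeR fit, and Cdh1 had 0.42 in DDKC_9750, -0.11 in DDKC_9790 and 0.19 in DDKC_9804. Summed macrophage markers were 9.54 to 29.1 CPM untreated and 10.5 to 46.1 with rDKK3, with Adgre1, Lyz2, C1qa and Fcgr1 at 0, and Cd68 was higher in all 3 lines (0.87, adjusted p = 0.00142 in edgeR's 12-library fit). Fibroblast markers were 2.94 to 13.3 and 5.26 to 12.1 CPM, with Pdpn called higher in the same edgeR fit (3.81, adjusted p = 0.00155). Pdpn had 8 and 44 counts in DDKC_9750 and at most 1 in the other lines, so its call comes from DDKC_9750. In DDKC_9750, Col1a1 (11.2 and 6.70 CPM) and Pdgfra (1.70 and 0.680 CPM) were lower with rDKK3 and were not called. Endothelial markers were 1.23 to 15.3 and 0.874 to 17.4 CPM, and acinar markers 0.685 to 11.8 and 0.575 to 11.0 CPM. The part of these shifts, and of the lower depth of treated libraries, in the ligand values was not tested beyond thinning all samples to the shallowest, after which the log2 fold changes were 3.96 for Cxcl2, 2.48 for Cxcl5, 2.33 for Cxcl3 and 2.32 for Cxcl1.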

How the data were processed

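Read pairs of 50 bases each were mapped by the authors (STAR 2.7.9a, GRCm39), assigned by strand to GENCODE genes with GenomicAlignments and deposited as raw counts per gene; their DESeq2 1.38.0 results were not used. The 92 spike-in rows, at 0, were left out. Here R 4.3.3, edgeR 4.0.16, limma 3.58.1 and DESeq2 1.42.0 were used. The 2 libraries of a line and treatment were summed (6 samples). Low-count genes were dropped with filterByExpr over the groups of line and treatment (15165 of 29823 with a count stayed), and edgeR's quasi-likelihood test was run with TMM, line as a block and Benjamini-Hochberg adjustment at 0.05. p-values measure the spread between these samples. Treated and untreated samples pair by line: their deviations correlated at 0.805 to 0.874 within a line. CPM uses TMM-scaled totals; log2 values within a line use a prior count of 2. The floor is 3 counts, 0.127 to 0.755 CPM per library. Intervals are exact 95% ones (Poisson for levels, conditional binomial for ratios) and, like floors, cover counting error only. Tests were tested on simulated data. Coordinates of genes are those deposited; upstream windows came from the GRCm39 genome and a GENCODE annotation newer than the authors' one. Members and lists were chosen with earlier results of these data known. Named were the 4 members, Dkk3, the 3 protein-coding genes most correlated with each member, and from each list the genes called in either fit or else the extremes. Other list genes, among them Zfp36, those with low counts and those given as not called, were chosen after their values were seen, as were the markers. Alternatives covered scaling, filter, tool, libraries, block, depth and leaving out lines or libraries. A further allele that all groups share is not reported here.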

Additional observations from a re-analysis of the deposited data

Results flagged for a closer look

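Each ligand passed the test for an interaction of line and treatment on 12 libraries. Adjusted p of edgeR's quasi-likelihood test was 0.0000286 for Cxcl1, 0.000372 for Cxcl2, 0.0000438 for Cxcl3 and 0.000000107 for Cxcl5. Ratios ran from 1.15 in DDKC_9790 to 7.84 in DDKC_9750 for Cxcl1, from 2.13 to 59.1 for Cxcl2, from 0.911 to 21.8 for Cxcl3 and from 1.87 to 14.9 for Cxcl5. The test counts the 2 libraries of a line and treatment as separate samples, which the labels do not settle, and it called 49.3% of all genes. Since paired libraries differed by less than sampling noise once their shift was allowed for, and each line and treatment is otherwise 1 sample, the spread between repeated cultures of a line was not measured, and a difference between lines beyond that spread was not tested.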

How the results depend on the processing

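Every alternative kept the log2 fold change of each ligand above 0. In the summed test none of the 4 was called (adjusted p of 0.515 to 0.694 with any 1 library left out), and leaving out a line moved the values: without DDKC_9750 they were 1.42 for Cxcl1, 1.11 for Cxcl2, 0.78 for Cxcl3 and 1.30 for Cxcl5, and without DDKC_9790 2.67, 5.45, 4.35 and 3.27. DESeq2 with the line called 0 of the 4 (adjusted p of 0.322 for Cxcl1, 0.147 for Cxcl2, 0.172 for Cxcl3 and 0.204 for Cxcl5). Without the filter on low counts, Cxcl1 (2.09, edgeR adjusted p = 0.0168) and Cxcl5 (2.37, 0.0373) were called. All 4 were called with the 12 libraries as separate samples (2.43 for Cxcl1, 4.08 for Cxcl2, 2.60 for Cxcl3 and 2.62 for Cxcl5), with the library series added (2.45, 4.31, 2.76 and 2.68) and with limma voom and each line and treatment as a random block (2.79, 4.23, 3.10 and 3.45). Chosen after seeing the data, the 12-library fit without each line in turn gave 1.52, 2.73 and 2.61 for Cxcl1 (without DDKC_9750, DDKC_9790 and DDKC_9804), 1.15, 5.66 and 4.44 for Cxcl2, 0.55, 4.39 and 2.66 for Cxcl3 and 1.14, 3.60 and 2.76 for Cxcl5.

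The number of genes called was 1 in the summed test, 90 without the filter, 95 with DESeq2, 629 with limma, 2744 with 12 libraries, 3124 with the library series and 2 after thinning. It ranged from 0 to 2 with a line or a library left out of the summed test (0 without DDKC_9750, DDKC_9790 or the second rDKK3 library of DDKC_9790, 2 without DDKC_9804) and was 3667, 2138 and 2301 with each line left out of the 12-library fit. With no replicate block, so without the pairing by line, 0 genes were called in the summed samples, where Cxcl1 had 2.91, Cxcl2 4.71, Cxcl3 3.23 and Cxcl5 3.88, and 0 in the 12 libraries. The cause of these shifts was not tested. With 1 library left out, the ratio in DDKC_9750 ranged from 7.32 to 8.11 for Cxcl1 and from 14.1 to 15.6 for Cxcl5. Low levels limit Cxcl2 and Cxcl3 in DDKC_9804, where untreated cells had 1 count each (0.0285 CPM) in the deepest of the summed samples.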
